A study of Sus scrofa with 6 samples.

Results

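The 10 genes described here encode antioxidant enzymes and the transcription factor that controls many of them. They are the superoxide dismutases SOD1, SOD2 and SOD3, catalase (CAT), peroxiredoxin 1 (PRDX1), NQO1, GCLM, TXNRD1, SRXN1 and NFE2L2. They were chosen by gene name, all 10 were found once each among 30477 genes in the deposited table, and all 10 passed the filter on low values. RNA came from the abdominal aorta of male Wuzhishan pigs, a miniature breed, which for 6 months ate either plain chow (NC) or the HFCF diet, rich in fat, cholesterol and fructose, with 3 pigs in each group and 1 library per pig. The labels give an age of 3 to 4 months and the methods an age of 6 to 7 months at acquisition. The HFCF diet was chow mixed with shortening, egg yolk powder, cholesterol and fructose, so its components cannot be told apart.

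Superoxide is turned into hydrogen peroxide by the superoxide dismutases, which work in the cytosol (SOD1), the mitochondrial matrix (SOD2) and the extracellular matrix (SOD3). Hydrogen peroxide is removed by catalase in peroxisomes and by the peroxiredoxins and glutathione peroxidases, which are recharged by thioredoxin and glutathione. NRF2, the protein of NFE2L2, is held in the cytosol and sent for degradation by KEAP1. When KEAP1 is modified by oxidants, NRF2 enters the nucleus, pairs with a small MAF protein and switches on genes such as NQO1, GCLM, TXNRD1 and SRXN1. NRF2 activity is therefore set largely at the protein level, which was not measured here. In the artery wall, SOD3 is known as the main extracellular superoxide scavenger and is made mostly by smooth muscle cells.

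Expression is given as FPKM, fragments counted for a gene relative to its length and to the mapped reads of the library, as the authors deposited it. The FPKM values summed to between 272207 and 287141 in the NC pigs and between 330222 and 338690 in the HFCF pigs. The read depth is not given per library, and the smallest steps between low values gave depths between 1 and 1.37 relative to the first NC pig. The diet was tested with limma on log2(FPKM + 0.1) over 15384 genes, with Benjamini-Hochberg adjustment over all of them, and a gene is called higher or lower at an adjusted p under 0.05. Because of the added 0.1, fold changes of weakly expressed genes come out too small. Over all tested genes the log2 change (HFCF minus NC) had a median of 0.32, and it lay between -0.07 and 0.09 under the scalings tried, so each gene is best read against that shift. An exact permutation test of 3 pigs against 3 cannot give a two-sided p below 0.1. Nothing in the labels ties pigs of the same number together.

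Markers of several cell types differed between the diets. All 13 measured macrophage markers were called higher in the HFCF group (12 under each scaling), and their summed level was 64.4 to 78.2 FPKM in the NC pigs and 906.4 to 2304 FPKM in the HFCF pigs. Of 11 contractile smooth muscle markers, 8 were called lower and 0 higher (limma; 0 were higher at an unadjusted p under 0.05 too), with sums of 16575 to 23980 FPKM in the NC pigs and 8432 to 13361 FPKM in the HFCF pigs. No marker of either list was at 0 in all pigs, and smooth muscle markers were high in every aorta. The first HFCF pig stood apart. Its macrophage sum was 2304 FPKM, where the other HFCF pigs had 979.7 and 906.4 FPKM, its red blood cell sum was 2921 FPKM against 101.5 and 108.0 FPKM, and its neutrophil sum was 94.4 FPKM against 11.9 and 5.40 FPKM. Adipocyte markers summed to 102.0, 153.6 and 18.2 FPKM in the NC pigs and to between 11.2 and 32.0 FPKM in the HFCF pigs. In bulk tissue, more cells of a type and more RNA per cell cannot be told apart, and the part of cell content in the results that follow was not tested.

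Of the 10 genes, PRDX1 and SOD2 were called higher in the HFCF group and 0 were called lower, with limma. At an unadjusted p under 0.05, 4 were higher and 0 lower. The share of all tested genes at that threshold was not computed, so nothing is read from these counts. The share called higher was 2 of 10, against 22.8% of all tested genes, and the share called lower was 0 of 10 against 6.16% of all tested genes. In FPKM as deposited, the groups did not overlap in 3 of the 10 genes (PRDX1, SOD1 and SOD2), each higher in every HFCF pig, against 36.1% of all tested genes in that direction, 12.1% in the other and 48.2% in either. Relative to the FPKM sum of each library, which was higher in the HFCF pigs, SOD1 and SOD2 overlapped and PRDX1 did not. The methods name a fold change over 2, or under 0.5, together with p under 0.05. This was applied here to the ratio of group means and the unadjusted p from limma, since the methods specify neither. PRDX1 and NFE2L2 passed as higher by that rule, as did 20.7% of all tested genes, and 0 of the 10 passed as lower, against 4.82%. These shares lie near the background, so the 10 genes were called about as often as genes in general. Their median log2 change was 0.67, above the 0.32 of all genes, and 9 of 10 values were positive. The list median was 0.33, 0.26 and 0.42 after median-ratio scaling, quantile normalization and rescaling to TPM. That of all genes was then -0.0031, -0.07 and 0.09. The genes differed from one another far more than the list median shows.

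The levels of the 10 genes spanned a wide range. SOD3 had the highest FPKM of the 10 in all 6 pigs and GCLM the lowest in all 6. The ratio of the highest to the lowest group mean was 105.5 in the NC group and 94.1 in the HFCF group. In the NC group, SOD3 was followed by PRDX1 and CAT, whose values overlapped, and then by SOD1, which lay below both. NQO1, TXNRD1, SRXN1 and NFE2L2 overlapped with one another there. In the HFCF group SOD3, PRDX1 and CAT were separated without overlap. The place of NFE2L2 in this order went from between the fifth and the ninth place in the NC pigs to between the third and the eighth in the HFCF pigs.

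**Figure D1:**
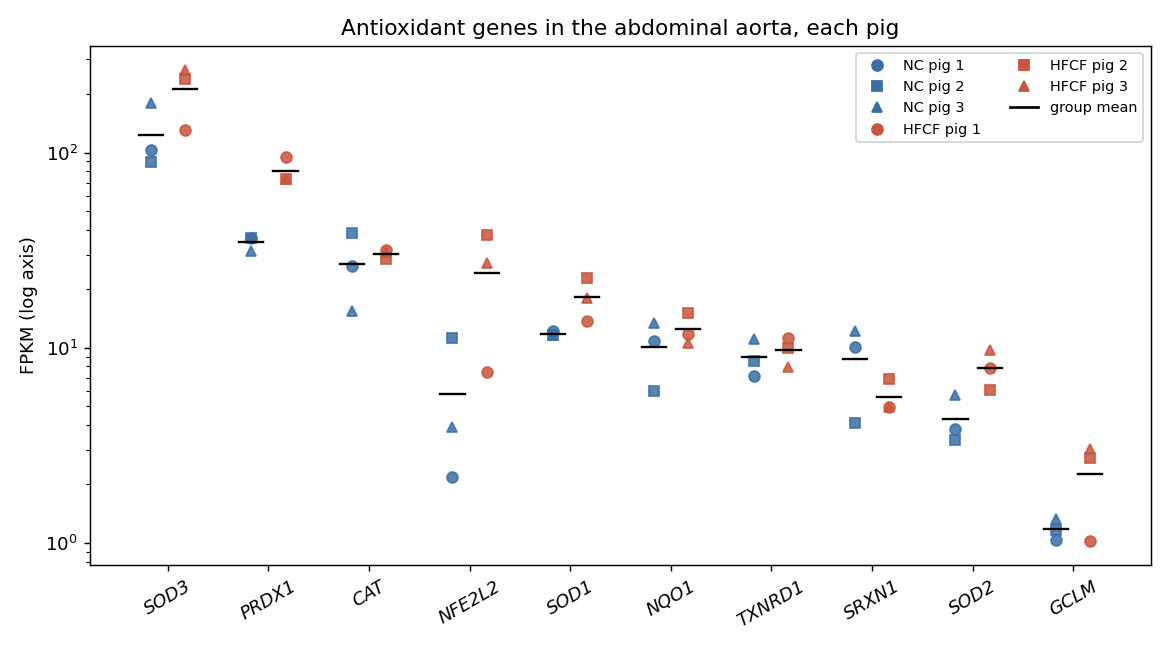
FPKM (log axis) of the 10 genes in each pig, ordered by the mean over 6 pigs, with NC in blue, HFCF in red, symbols for pig number and black bars for group means. PRDX1, SOD1 and SOD2 show no overlap between groups, while the first HFCF pig lies among the NC values for SOD3 and NFE2L2 and just below them for GCLM.

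Among the superoxide dismutases, SOD2 was called higher, while SOD1 and SOD3 had positive fold changes that missed the threshold. SOD3 (ENSSSCG00000028814) had 102.5, 89.3 and 178.6 FPKM in the NC pigs and 130.5, 239.5 and 266.4 FPKM in the HFCF pigs. The first HFCF pig lay inside the NC range and the other HFCF pigs above it. The group means were 123.5 ± 48.2 and 212.1 ± 72.0 FPKM (SD, n = 3 each). The log2 change was 0.78 with a 95% interval from -0.05 to 1.62 (limma adjusted p = 0.139), and 1.10 without the first HFCF pig (limma adjusted p = 0.0489). That refit was the 1 of 15 alternatives in which SOD3 was called, and the adjusted p from limma went up to 0.413 in the others.

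SOD1 (ENSSSCG00000021355) had 12.2, 11.6 and 11.6 FPKM in the NC pigs and 13.7, 22.7 and 17.9 FPKM in the HFCF pigs. The NC pigs were close together, at 11.8 ± 0.325 FPKM (SD, n = 3). Every HFCF pig lay above them in FPKM as deposited, but not relative to the FPKM sum of each library. The log2 change was 0.58 with a 95% interval from 0.11 to 1.06 (limma adjusted p = 0.0666). Read against the shift of all genes it was 0.26. Without the first HFCF pig the log2 change was 0.77 (limma adjusted p = 0.0226). SOD1 was called in that 1 of 15 alternatives, with an adjusted p from limma of up to 0.444 in the others.

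SOD2 (ENSSSCG00000040317) had 3.80, 3.36 and 5.70 FPKM in the NC pigs and 7.85, 6.06 and 9.67 FPKM in the HFCF pigs. It rose from 4.29 ± 1.24 to 7.86 ± 1.81 FPKM (SD, n = 3 each), without overlap in FPKM as deposited, a log2 change of 0.87 (standard error, SE, 0.27; limma adjusted p = 0.0473). The call lies close to the threshold. It was kept in 4 of 15 alternatives, with an adjusted p from limma between 0.0301 and 0.21, and it was lost under each of the 3 scalings and without any one pig except the third NC pig (without the second HFCF pig the adjusted p was 0.0501, limma). SOD3 made up 85.7% to 91.1% of the summed FPKM of the 3 superoxide dismutase genes, and this share overlapped between the groups.

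Of the enzymes that remove hydrogen peroxide directly, PRDX1 was called higher and CAT was not called. PRDX1 (ENSSSCG00000003914), a cytosolic peroxidase that takes its electrons from thioredoxin, had 36.4, 36.4 and 31.2 FPKM in the NC pigs and 94.3, 72.9 and 73.3 FPKM in the HFCF pigs. It rose from 34.7 ± 3.01 to 80.2 ± 12.2 FPKM (SD, n = 3 each). The ratio of means was 2.31, with a log2 change of 1.20 (SE 0.16, limma adjusted p = 0.00309). The groups lay far apart relative to the spread within each. PRDX1 was the one gene of the 10 that was called in all 15 alternatives, with an adjusted p from limma of at most 0.0163 and a log2 change between 0.84 and 1.26. Its highest value was in the first HFCF pig, which also had the highest macrophage marker sum, and without that pig its log2 change was 1.08 (limma adjusted p = 0.00614).

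CAT (ENSSSCG00000013302), the peroxisomal enzyme that splits hydrogen peroxide without an electron donor, had 26.1, 38.8 and 15.4 FPKM in the NC pigs and 31.7, 28.5 and 30.8 FPKM in the HFCF pigs. All 3 HFCF values lay inside the NC range. The log2 change was 0.28 with a 95% interval from -0.46 to 1.02 (limma adjusted p = 0.537), which leaves room for a change of either sign, and its sign turned with median-ratio scaling and without the third NC pig. The coefficient of variation was 43.8% in the NC group and 5.56% in the HFCF group. Across the NC pigs, CAT had the same order as the summed adipocyte markers given above, but across the HFCF pigs it did not. Their adipocyte sums were 18.4, 11.2 and 32.0 FPKM. The third NC pig, with a sum of 18.2 FPKM, had less CAT than any HFCF pig. The part of adipose tissue in the CAT values was not tested.

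SRXN1 and TXNRD1 serve the peroxiredoxin cycle, and neither was called. SRXN1 (ENSSSCG00000023298), sulfiredoxin, which repairs overoxidized peroxiredoxins, had 10.1, 4.09 and 12.2 FPKM in the NC pigs and 4.98, 6.89 and 4.93 FPKM in the HFCF pigs. It was the one gene of the 10 with a negative log2 change, -0.52 with a 95% interval from -1.47 to 0.43 (limma adjusted p = 0.368). The second NC pig lay below all HFCF pigs and the other NC pigs above them. Without the second NC pig the log2 change was -0.99 and the adjusted p 0.0374 (limma), so this single library decides the call.

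TXNRD1 (ENSSSCG00000000843), the cytosolic selenoenzyme that recharges thioredoxin, had 7.18, 8.54 and 11.1 FPKM in the NC pigs and 11.1, 9.90 and 7.97 FPKM in the HFCF pigs. The groups overlapped almost fully. Its log2 change of 0.12 had a 95% interval from -0.39 to 0.63 (limma adjusted p = 0.706), and the sign turned under each of the 3 scalings and without the first NC pig.

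The ratio of PRDX1 to SRXN1 within a library does not depend on any single scaling factor of that library. It was 3.61, 8.91 and 2.56 on NC and 18.9, 10.6 and 14.9 on HFCF. Every HFCF pig was above every NC pig. This ratio was picked after the values had been seen, so it is given with no test.

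NQO1 and GCLM are textbook NRF2 targets. NQO1 (ENSSSCG00000002754), which reduces quinones by a pair of electrons, had 10.8, 6.02 and 13.3 FPKM in the NC pigs and 11.7, 15.1 and 10.6 FPKM in the HFCF pigs. The groups overlapped, and the log2 change was 0.36 with a 95% interval from -0.36 to 1.09 (limma adjusted p = 0.404). It was 0.04 relative to the median of all genes.

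GCLM (ENSSSCG00000037549), the modifier subunit of the enzyme that starts glutathione synthesis, had 1.03, 1.16 and 1.32 FPKM in the NC pigs and 1.02, 2.71 and 3.03 FPKM in the HFCF pigs. The first HFCF pig had the lowest value of all 6, and the other HFCF pigs the highest. Over all pigs the log2 change was 0.76 with a 95% interval from -0.22 to 1.74 (limma adjusted p = 0.207). Without the first HFCF pig it was 1.23 (limma adjusted p = 0.0183). GCLM was called in that 1 of 15 alternatives, with an adjusted p from limma of up to 0.883 in the others. The summed FPKM of the targets NQO1, GCLM, TXNRD1 and SRXN1 was 29.0 ± 9.08 in the NC group and 29.98 ± 4.15 in the HFCF group (SD, n = 3 each), a difference well within the spread.

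NFE2L2 (ENSSSCG00000015987), the gene of NRF2 itself, had 2.17, 11.2 and 3.92 FPKM in the NC pigs and 7.51, 37.9 and 27.2 FPKM in the HFCF pigs. The second NC pig lay above the first HFCF pig, so the groups overlapped. The means were 5.76 ± 4.78 and 24.2 ± 15.4 FPKM (SD, n = 3 each), a 4.20-fold ratio. Its log2 change of 2.09 was the largest of the 10 in size, and so was its standard error of 0.75 (95% interval 0.33 to 3.85, limma adjusted p = 0.0748). The adjusted p from limma lay between 0.0148 and 0.224 over 15 alternatives. It was 0.0461 without the second NC pig and 0.0296 without the first HFCF pig (limma), so the call turns on either of these libraries. The annotation lists 7 transcripts for NFE2L2, and the gene-level FPKM does not tell which of them were present.

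**Figure D2:**
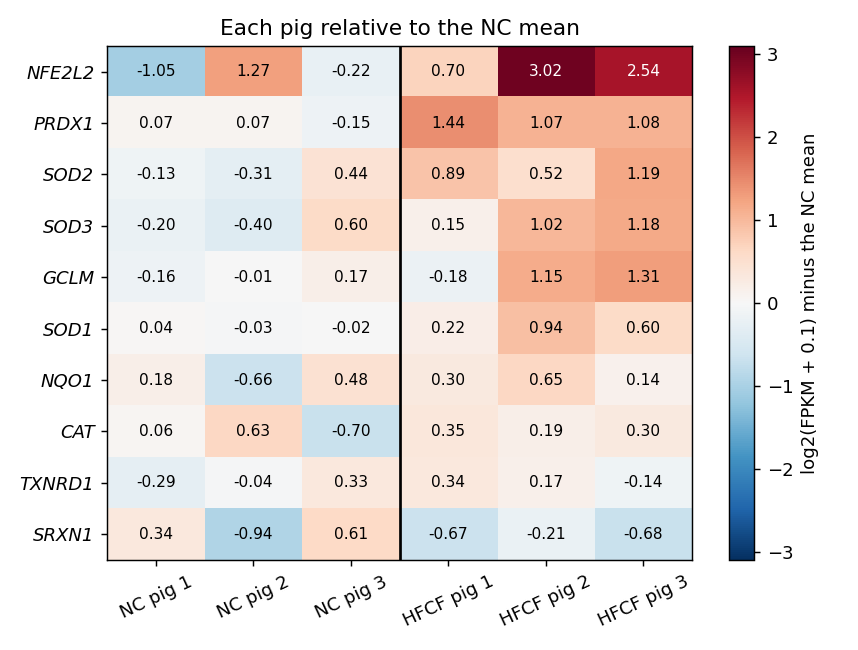
Each cell gives log2(FPKM + 0.1) of a gene in a pig minus the mean of the 3 NC pigs, for NC pigs on the left and HFCF pigs on the right. PRDX1 lies at 1.07 to 1.44 in all 3 HFCF pigs, while NFE2L2, SOD3, GCLM and SOD1 have lower values in the first HFCF pig than in the others.

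The pigs did not carry these genes as a block. In the HFCF group, NFE2L2, SOD3, GCLM and SOD1 had their lowest value in the first pig, by -0.18 to 0.70 relative to the NC mean on the log2 scale, against 0.60 to 3.02 in the other HFCF pigs. PRDX1, TXNRD1 and CAT had their highest HFCF value in that same pig. Leaving it out raised the number of the 10 genes called higher from 2 to 5, namely SOD1, SOD3, PRDX1, GCLM and NFE2L2. SOD2 was no longer called. Over all tested genes, that refit called 2810 of 15168 higher, against 3505 of 15384 with all pigs. Leaving out the second or the third HFCF pig instead left PRDX1 as the only call among the 10. Those refits called 2346 and 2815 of all tested genes higher. In the NC group, the second pig had the highest NFE2L2 and CAT values and the lowest SRXN1, NQO1, SOD2 and SOD3 values. It also had the highest PRDX1 and the lowest SOD1 value, each close to that of another NC pig. The NC pig with the most NFE2L2 mRNA had the least NQO1 and SRXN1. In the HFCF group the second pig had the most NFE2L2, NQO1 and SRXN1. The third HFCF pig came next for NFE2L2 but had the least NQO1 and SRXN1 of its group. In the first HFCF pig, with the least NFE2L2 of its group, GCLM was lowest and TXNRD1 highest. The targets thus followed no common order with NFE2L2 (a description over 3 animals each).

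**Figure D3:**
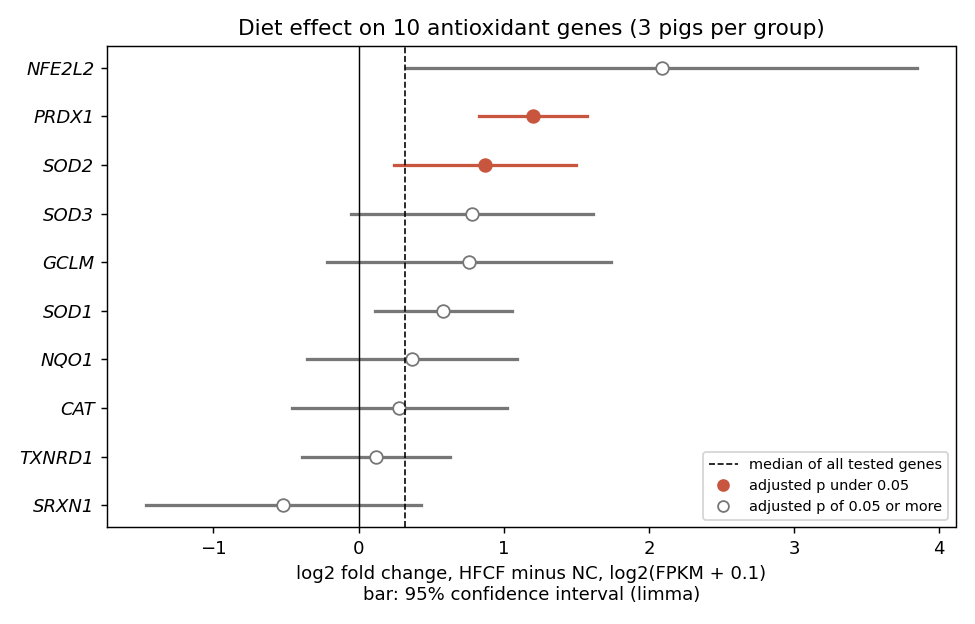
Log2 change of each gene (HFCF minus NC) with its 95% confidence interval from limma, with filled red points for an adjusted p under 0.05 and a dashed line at the median of all tested genes, 0.32. The intervals of PRDX1, SOD2, SOD1 and NFE2L2 exclude 0, and those of PRDX1 and, narrowly, NFE2L2 (from 0.33) also lie wholly above the dashed line.

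The genes whose profile over the 6 pigs was most like that of NFE2L2 were FLRT3, NOG and CENPU. The root mean square distance between their log2 values, each centred on its NC mean, was 0.54, 0.68 and 0.71 among 10083 genes compared. The genes most like SRXN1 were TMEM51, PTGIR and BAHCC1, at distances of 0.16, 0.20 and 0.20. TMEM51 had 52.6, 26.8 and 58.8 FPKM in the NC pigs and 27.0, 32.8 and 25.2 FPKM in the HFCF pigs, with the same low second NC pig as SRXN1.

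The rest of the antioxidant system was read from 5 lists of 86 genes, of which 76 were measured and 72 passed the filter. Of these, 14 were called higher and 1 lower with limma, 19.4% and 1.39%, against 22.8% and 6.16% of all tested genes. Their median log2 change was 0.32, the same as that of all genes. The split depended on scaling, with 5 higher and 8 lower after median-ratio scaling, 5 and 6 after quantile normalization and 6 and 5 after rescaling to TPM. HMOX1, SLC7A11 and FTH1 are further well-known NRF2 targets. HMOX1 and FTH1 were listed but not matched to a single named gene, so no values of them were analysed here. SLC7A11, the cystine importer, stayed at or below 0.148 FPKM in all 6 pigs and was not tested.

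**Figure D4:**
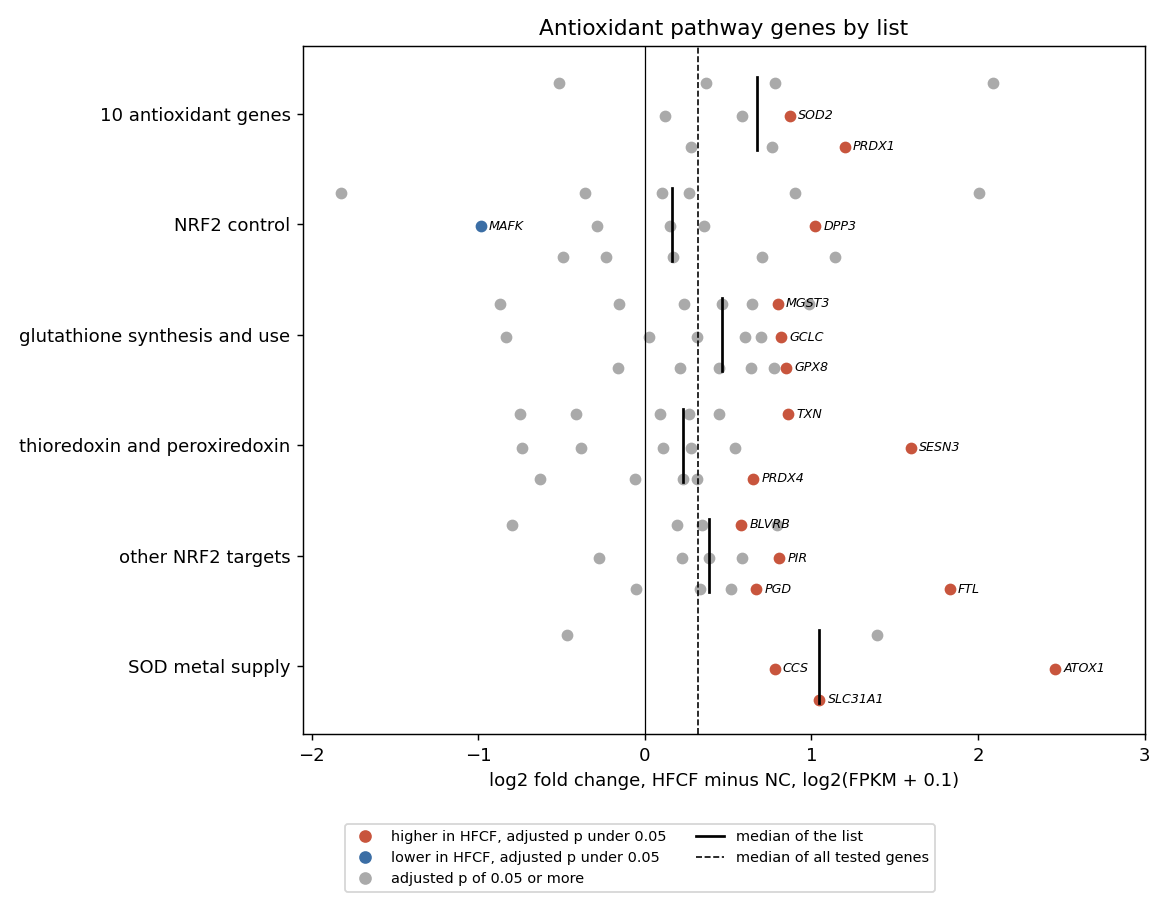
Log2 changes (HFCF minus NC) of the tested genes of each list, one point per gene, with called genes in red (higher) or blue (lower) and named, black bars at list medians and a dashed line at 0.32, the median of all tested genes. ATOX1, FTL and SESN3 lie farthest to the right among the called genes, and MAFK is the one called lower.

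The list with the highest median was that of the metal supply of the superoxide dismutases, at 1.05. Of its 5 tested genes, 3 were called higher, against 22.8% of all tested genes, and 0 lower (0 also at an unadjusted p under 0.05). Under median-ratio, quantile and TPM scaling, 1 was called higher and 0 lower each time, with medians of 0.70, 0.71 and 0.80. ATOX1 (ENSSSCG00000026414), the copper chaperone that hands copper to the secretory pathway where SOD3 is loaded, had 5.72, 4.61 and 3.53 FPKM in the NC pigs and 24.4, 26.5 and 25.5 FPKM in the HFCF pigs. It rose by a log2 change of 2.46 (SE 0.20, limma adjusted p = 0.000774) and was called in all 15 alternatives. The first HFCF pig did not stand apart here. ATOX1 amounted to 5.58%, 5.16% and 1.98% of the SOD3 FPKM on NC and 18.7%, 11.1% and 9.56% on HFCF, a ratio chosen after the values had been seen.

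CCS, the copper chaperone of SOD1, had 4.25, 5.06 and 6.71 FPKM in the NC pigs and 10.3, 9.77 and 7.40 FPKM in the HFCF pigs, a log2 change of 0.78 (limma adjusted p = 0.041). SLC31A1, the copper importer CTR1, rose from 4.47 ± 0.958 to 9.68 ± 3.89 FPKM (SD, n = 3 each; limma adjusted p = 0.0406). The calls of CCS and SLC31A1 were kept in 5 and 4 of 15 alternatives and were lost under each scaling. The copper pump ATP7A had a log2 change of 1.40 (limma adjusted p = 0.0907) and the metal importer SLC39A14 one of -0.47 (limma adjusted p = 0.202).

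Of 17 tested thioredoxin and peroxiredoxin genes, 3 were called higher and 0 lower (limma; 3 were lower at an unadjusted p under 0.05), and the list median of 0.23 lay below that of all genes and turned negative under each scaling. The calls higher and lower became 2 and 4 after median-ratio scaling and 2 and 2 with quantile normalization as with rescaling to TPM. TXN, thioredoxin, the electron donor of PRDX1, had 22.5, 24.2 and 20.3 FPKM in the NC pigs and 42.4, 40.0 and 38.9 FPKM in the HFCF pigs, a log2 change of 0.86 (SE 0.13, limma adjusted p = 0.00519). SESN3, a sestrin, rose from 3.11 ± 0.79 to 9.43 ± 0.807 FPKM (SD, n = 3 each; log2 change 1.60, limma adjusted p = 0.0033). TXN and SESN3 were called in all 15 alternatives. PRDX4, the peroxiredoxin of the endoplasmic reticulum, rose by 0.65 on the log2 scale (limma adjusted p = 0.0247), a call kept in 7 of 15 alternatives and lost under each scaling. TXNIP, the thioredoxin inhibitor, and MSRB3, a methionine sulfoxide reductase, had log2 changes of -0.41 and -0.63 (limma adjusted p = 0.314 and 0.0534). MSRB3 passed as lower under each of the 3 scalings, and so did SESN2, another sestrin, named here after its values had been seen. SESN2 had 4.22, 5.85 and 3.64 FPKM in the NC pigs and 2.54, 3.13 and 2.32 FPKM in the HFCF pigs (log2 change -0.74, limma adjusted p = 0.0567), without overlap.

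Of 19 tested glutathione genes, 3 were called higher and 0 lower (limma; 1 was lower at an unadjusted p under 0.05), with a median of 0.46. Under median-ratio, quantile and TPM scaling the calls higher and lower were 0 and 1, 1 and 1, and 1 and 0. MGST3, a microsomal glutathione transferase, rose from 32.7 ± 5.79 to 56.2 ± 2.41 FPKM (SD, n = 3 each; limma adjusted p = 0.0133) and was called in 14 of 15 alternatives. GCLC, the catalytic partner of GCLM, had 1.69, 2.02 and 1.81 FPKM in the NC pigs and 4.25, 3.12 and 2.74 FPKM in the HFCF pigs, a log2 change of 0.82 (limma adjusted p = 0.0376). Its highest value was in the first HFCF pig, where GCLM was lowest. The ratio of GCLC to GCLM was 4.17 there against 1.15 and 0.904 in the other HFCF pigs. In the NC pigs it was 1.65, 1.74 and 1.37. This ratio rests on low GCLM values, 1.02 FPKM in the first HFCF pig, and is given with no test. GPX8, a peroxidase of the endoplasmic reticulum, rose by 0.85 on the log2 scale (limma adjusted p = 0.041). GCLC and GPX8 each kept their call in 5 of 15 alternatives and lost it under each scaling. GPX1, the cytosolic glutathione peroxidase, was abundant at 279.7, 203.4 and 163.9 FPKM in the NC pigs and 467.2, 277.0 and 274.0 FPKM in the HFCF pigs, and was not called (limma adjusted p = 0.132). GPX3, the secreted form, overlapped between groups (limma adjusted p = 0.628).

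The NRF2 control list holds regulators and partners of NRF2 and factors related to it. Of its 16 genes, 1 was called higher and 1 lower, with a median of 0.16 that turned negative under each scaling. The calls higher and lower became 1 and 3, 0 and 2, and 1 and 3 after median-ratio scaling, quantile normalization and rescaling to TPM. MAFK, one of the small MAF partners of NRF2, had 31.1, 31.5 and 35.3 FPKM in the NC pigs and 22.9, 14.9 and 12.9 FPKM in the HFCF pigs. It fell by 0.98 on the log2 scale (SE 0.22, limma adjusted p = 0.0185), a call kept in 11 of 15 alternatives, among them the 3 scalings, and lost with each of 4 pigs left out. The other small MAF genes, MAFF and MAFG, named here after their values had been seen, were not called. Their log2 changes were -0.49 and 0.27 (limma adjusted p = 0.267 and 0.435). DPP3, a peptidase that binds KEAP1, rose from 2.02 ± 0.154 to 4.19 ± 0.232 FPKM (SD, n = 3 each; limma adjusted p = 0.00801). Its call was kept in 14 of 15 alternatives and lost with quantile normalization (limma adjusted p = 0.0757). SQSTM1, which can draw KEAP1 into autophagy, had 196.2 to 213.8 FPKM in the HFCF pigs and 248.4 to 287.4 FPKM in the NC pigs without overlap. It was not called (log2 change -0.36, limma adjusted p = 0.0929), but passed as lower under each of the 3 scalings. PARK7, a redox-sensitive protein that stabilizes NRF2, had a log2 change of 0.10 (limma adjusted p = 0.636). KEAP1, named here for its role after its values had been seen, had 18.0, 17.3 and 17.1 FPKM in the NC pigs and 16.6, 20.5 and 22.3 FPKM in the HFCF pigs (log2 change 0.17, limma adjusted p = 0.434).

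Of 15 other NRF2 targets, 4 were called higher and 0 lower (limma; 0 also at an unadjusted p under 0.05), with a median of 0.38. The calls higher and lower were 1 and 0, 1 and 1, and 1 and 0 under median-ratio scaling, quantile normalization and rescaling to TPM. FTL, the ferritin light chain, had 363.9, 516.3 and 316.0 FPKM in the NC pigs and 1799, 1149 and 1288 FPKM in the HFCF pigs, a log2 change of 1.83 (SE 0.26, limma adjusted p = 0.00405). It was called in all 15 alternatives, and how reads were split between FTL and ferritin copies elsewhere in the genome cannot be seen from FPKM. PGD, of the pentose phosphate pathway, PIR, an iron-binding nuclear protein, and BLVRB, a heme breakdown enzyme, rose by 0.67, 0.81 and 0.58 on the log2 scale (limma adjusted p = 0.0247, 0.0213 and 0.0287). Each of these calls was lost under the 3 scalings. TALDO1 and TKT, also of the pentose phosphate pathway, had log2 changes of 0.23 and 0.19 (limma adjusted p = 0.302 and 0.316).

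The annotation deposited with the values placed 8 of the 10 genes under oxidoreductase activity and 6 under the response to oxidative stress. SOD1, SOD2, CAT and PRDX1 shared the KEGG peroxisome pathway, in which 16 of 70 tested genes were called higher and 1 lower, 24.3% in all against 28.9% of all tested genes. NFE2L2 and NQO1 shared the pathway of fluid shear stress and atherosclerosis, with 20 of 115 called higher and 5 lower. In glutathione metabolism, which holds GCLM, 8 of 40 were called higher and 2 lower. The pathways named so far lay below the 28.9% of all tested genes, but others that hold any of the 10 genes lay above it. The share called in either direction ran from 11.1% (ubiquinone and other terpenoid-quinone biosynthesis, with NQO1) to 45.6% (Huntington disease, with SOD1 and SOD2). It was 41.2% in ferroptosis, which also holds GCLM, and 13.5% in amyotrophic lateral sclerosis, with CAT and SOD1. SOD3 and SRXN1 carried no KEGG pathway.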

How the data were processed

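Paired-end reads of abdominal aorta RNA from 3 NC and 3 HFCF pigs were trimmed with cutadapt 1.9 (per the submitters' processing notes), aligned with HISAT2 and assembled with StringTie by the authors, who deposited FPKM values for 30477 genes. The methods name an earlier pig build than the gene table at hand, so no coordinates are given. Values of 0.0001 FPKM or less were read as 0. Names of 761 unnamed genes came from a reference table of gene IDs. Genes with a mean of at least 0.1 FPKM were fitted with limma 3.58.1 in R 4.3.3 (diet as the single factor, eBayes with a trend). The fits were tested on simulated data. The genes and lists were chosen with earlier results of these data known. Named were the 10 genes, every called gene of a list, the 2 most abundant uncalled ones, and the 3 genes closest in profile to NFE2L2 and to the genes with the largest and smallest fold change. FPKM holds no counts, so precision comes from the spread among pigs. How reads shared by related sequences were divided is not given in the sources used here. No count test was run, and lipidomics, staining and cell culture were not analysed here.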

Additional observations from a re-analysis of the deposited data

How the results depend on the processing

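Results were recomputed with other pseudocounts (1 and 0.01), no filter, a mean FPKM of at least 1, 3 scalings, no variance trend, a replicate block, each pig left out and the thresholds of the study. PRDX1, ATOX1, TXN, SESN3 and FTL kept their call in each of the 15 fits. Over 25 named genes, 269 of 375 refits kept direction and side of the threshold, 93 lost a call, 7 gained one and 6 turned in sign. Those 6 were log2 fold changes of CAT (-0.077 with median-ratio scaling, -0.070 without the third NC pig, and up to 0.60 with another pig left out) and TXNRD1 (-0.23 with median-ratio scaling, -0.16 with quantile normalization, -0.14 after rescaling to TPM, -0.025 without the first NC pig, and up to 0.29 with another pig left out). For all tested genes, the counts higher and lower were 3505 and 948 as reported, 2032 and 1968 with median-ratio scaling, 1748 and 1782 with quantile normalization and 2229 and 1527 after rescaling to TPM, and leaving out 1 pig gave 1979 to 2815 higher and 442 to 786 lower. Of the 10 genes, 1 was called higher with pseudocount 1, no filter, each scaling or no trend, and 1 to 5 higher and 0 to 1 lower with 1 pig left out. For the pathway lists, the counts higher and lower were 5 and 8, 5 and 6, and 6 and 5 under the 3 scalings, 7 and 0 by the study's thresholds, 16 and 3 with a mean FPKM of at least 1, and 6 to 13 and 0 to 3 with 1 pig left out. The median log2 fold change of all genes, 0.32 as deposited, was -0.0031, -0.07 and 0.09 under these scalings. Why single pigs moved these counts was not tested.

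Deviations from the group mean in same-numbered pigs had correlations across genes of 0.02, -0.08 and -0.07, and those of other pairs lay between -0.07 and 0.13. These values show no pairing by number, but with 3 pigs per group they cannot exclude one. With a replicate block, 2232 genes were higher and 540 lower, 3 of the 10 genes were called (NFE2L2 was added, adjusted p = 0.0148, limma), and the pathway lists had 7 higher and 1 lower. Depth per library is unknown, which limits low genes such as GCLM and SLC7A11 most.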
